A study of Mus musculus with 9 samples.

Results

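The genes described here are the mouse collagen genes other than those of collagen VI. Members were all genes whose symbol in the array's platform annotation has the form of a collagen alpha chain, without Col6a1, Col6a2 and Col6a3, and only probe sets that the annotation gives to 1 gene were used. The rule found 37 of 22071 named genes, with 2055 probe sets and 5 to 121 probe sets per gene. RNA came from C2C12, an established line of mouse myoblasts that is grown as dividing precursor cells and can fuse into muscle fibres. The cells grew in DMEM with serum and were given siRNA that targets Cugbp1, siRNA that targets Mbnl1 or a control siRNA, and total RNA was taken 48 h later. Each group had 3 exon arrays, made from 100 ng of RNA each. No group was untransfected, so every comparison is between siRNAs, in 1 cell line. Below, siRNA arrays are those of cells given Cugbp1 or Mbnl1 siRNA, and controls are those of cells given control siRNA. The labels do not say whether replicates came from separate cultures, so each p-value reflects no more than the spread among these 9 arrays, part or all of which may be technical.

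Collagens are secreted proteins of 3 chains wound into a helix. Fibrillar collagens build the ropes of connective tissue, type IV collagens build the sheet under and around cells such as muscle fibres, and fibril-associated, short-chain, multiplexin and transmembrane collagens link, coat or anchor these structures. The chains are hydroxylated and folded in the endoplasmic reticulum, trimmed outside the cell and cross-linked. CELF1, the product of the gene once called Cugbp1, and MBNL1 bind RNA and act on the splicing, decay and placing of transcripts, and myotonic dystrophy disturbs the activity of both.

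Promoter sequences are shown for 5 members that carry the contrasts described below: 3 that were higher after Mbnl1 siRNA (Col1a2, Col3a1 and Col8a1) and 2 that were lower after both siRNAs (Col8a2 and Col15a1). Each is the 250 bases before the annotated start in the RefSeq table for GRCm38.p6, matched by symbol and written 5′ to 3′ on the strand of the gene. The arrays were annotated on another build (mm9), and no array coordinate was used. Capitals mark the TATA box letters TATAAA, the CAAT box letters CCAAT and the GC box letters GGGCGG, each searched on both strands, so a motif of the other strand stands as its reverse complement. The positions are chr6:4505368-4505617 (plus strand) for Col1a2, chr1:45311288-45311537 (plus) for Col3a1, chr16:57754738-57754987 (minus) for Col8a1, chr4:126286544-126286793 (plus) for Col8a2 and chr4:47207762-47208011 (plus) for Col15a1.
Col1a2: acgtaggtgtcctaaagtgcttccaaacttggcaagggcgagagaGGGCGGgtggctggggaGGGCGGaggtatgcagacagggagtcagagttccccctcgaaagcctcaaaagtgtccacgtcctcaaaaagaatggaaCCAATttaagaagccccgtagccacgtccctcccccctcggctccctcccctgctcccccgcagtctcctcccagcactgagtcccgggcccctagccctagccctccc
Col3a1: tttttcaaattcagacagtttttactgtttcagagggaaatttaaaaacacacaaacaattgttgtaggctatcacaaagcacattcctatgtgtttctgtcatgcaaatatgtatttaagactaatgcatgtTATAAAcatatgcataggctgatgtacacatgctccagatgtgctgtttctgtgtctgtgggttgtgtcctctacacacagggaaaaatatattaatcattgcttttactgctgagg
Col8a1: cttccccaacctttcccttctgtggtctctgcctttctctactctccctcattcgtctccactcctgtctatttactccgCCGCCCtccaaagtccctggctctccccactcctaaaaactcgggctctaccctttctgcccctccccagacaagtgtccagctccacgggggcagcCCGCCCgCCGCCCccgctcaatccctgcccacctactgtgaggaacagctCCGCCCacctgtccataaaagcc
Col8a2: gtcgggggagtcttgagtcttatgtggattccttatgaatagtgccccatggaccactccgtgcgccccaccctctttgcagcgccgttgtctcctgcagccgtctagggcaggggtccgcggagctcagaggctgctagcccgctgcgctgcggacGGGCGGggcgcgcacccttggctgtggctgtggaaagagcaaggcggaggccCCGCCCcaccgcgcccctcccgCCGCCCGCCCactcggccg
Col15a1: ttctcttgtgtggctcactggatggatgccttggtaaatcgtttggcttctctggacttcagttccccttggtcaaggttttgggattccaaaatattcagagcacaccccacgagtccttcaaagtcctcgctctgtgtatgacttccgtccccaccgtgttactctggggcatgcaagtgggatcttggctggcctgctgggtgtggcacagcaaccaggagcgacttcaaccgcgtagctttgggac
The Col1a2 stretch held 1 CCAAT, with its first base 109 bases before the start, and 2 GGGCGG at 205 and 188 bases. Col3a1 held 1 TATAAA, 117 bases before the start. Col8a1 held 4 GGGCGG at 170, 73, 66 and 23 bases. Col8a2 also held 4, at 93, 41, 19 and 15 bases, the last 2 of which overlap. Col15a1 held none of the motifs searched. Over the 31 promoters of the 29 members in the table, 5 held TATAAA (16.1%, against 12.4% of all 32851 promoters), 12 held CCAAT (38.7% against 33.8%) and 17 held GGGCGG (54.8% against 32.7%). A match is a description of letters and not of a bound site. Members without an entry include Col1a1, Col5a2 and Col12a1.

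Values are log2 of the deposited intensities. A probe set was kept when its 9-array mean was at or above the 75th percentile over the whole table (an intensity of 128), and a gene was tested when 3 or more of its probe sets were kept. Of the 2055 collagen probe sets 1161 were kept (56.5%, against 53.3% of all probe sets with 1 symbol). This left 36 of the 37 genes, with 6 to 72 kept probe sets each. Col10a1, which encodes the collagen of hypertrophic cartilage, kept 1 of 5 probe sets and was not tested. That probe set read 8.63, 8.75 and 8.83 on the control arrays, 8.09, 8.17 and 8.01 after Cugbp1 siRNA and 8.18, 8.38 and 8.08 after Mbnl1 siRNA, so it was lower on all 6 siRNA arrays. Levels of different genes come from different probes and are not set against each other.

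The targeted genes were lower where the labels say so. Celf1 was at 36.4% of its control level after Cugbp1 siRNA and Mbnl1 at 39.3% after Mbnl1 siRNA, each as a fold from gene values on 3 arrays per group. In a principal component analysis of all tested genes, the first component (54.2% of the variance) parted all 6 siRNA arrays from the controls and the second (17.5%) parted the siRNAs from each other. The median intensity was 43.6 to 43.8 on the control arrays and lower, 42.3 to 42.9, on the 6 arrays of siRNA-targeted cells. All 10 myoblast markers listed were tested, and their summed linear level was 15400 to 15830 in controls, 16270 to 16790 after Cugbp1 siRNA and 15530 to 16890 after Mbnl1 siRNA. Most of this sum is Chrna1 and Des, which passed in neither comparison. Of the 10 markers 4 rose and 0 fell after Cugbp1 siRNA (Myod1, Cdh15, Cdh2 and Ncam1), and Cdh2 and Ncam1 rose and Myf5 fell after Mbnl1 siRNA. By the same test, given below, 26% of all genes rose and 12.7% fell after Cugbp1 siRNA, and 26.9% and 14.6% after Mbnl1 siRNA.

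Collagen genes moved in opposite directions within the family. After Mbnl1 siRNA 6 of the 36 tested genes rose (Col12a1, Col5a2, Col18a1, Col3a1, Col8a1 and Col1a2) and 16 fell, by limma with Benjamini-Hochberg adjustment over all 12646 tested genes at an adjusted p under 0.05. Of all genes 41.5% were called in this comparison, 26.9% higher and 14.6% lower. After Cugbp1 siRNA 1 collagen gene rose (Col5a2) and 15 fell, where 38.7% of all genes were called, 26% higher and 12.7% lower. The median log2 change of the 36 genes was -0.16 after Mbnl1 siRNA and -0.13 after Cugbp1 siRNA, beside 0.041 and 0.054 over all genes. Both comparisons use the same 3 control arrays, so their values are given side by side and not as separate evidence. The arrays did not overlap in range for 29 collagen genes after Mbnl1 siRNA, 7 above and 22 below the controls (all genes: 37.3% above, 20.3% below), and for 21 after Cugbp1 siRNA, 3 above and 18 below (32.9% and 15.9%).

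Of the 22 calls after Mbnl1 siRNA 13 were kept under every alternative setting and with each array left out in turn, and of the 16 after Cugbp1 siRNA 4 were. The 13 included all 6 genes that rose. The 4 were Col5a2, which rose, and Col9a3, Col27a1 and Col15a1, which fell. Without control replicate 1 the Cugbp1 comparison called 9 collagen genes, without control replicate 3 it called 10, and with no filter on weak signals 8. In bulk RNA, fewer cells that express a gene and less RNA per cell cannot be told apart.

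**Figure D1:**
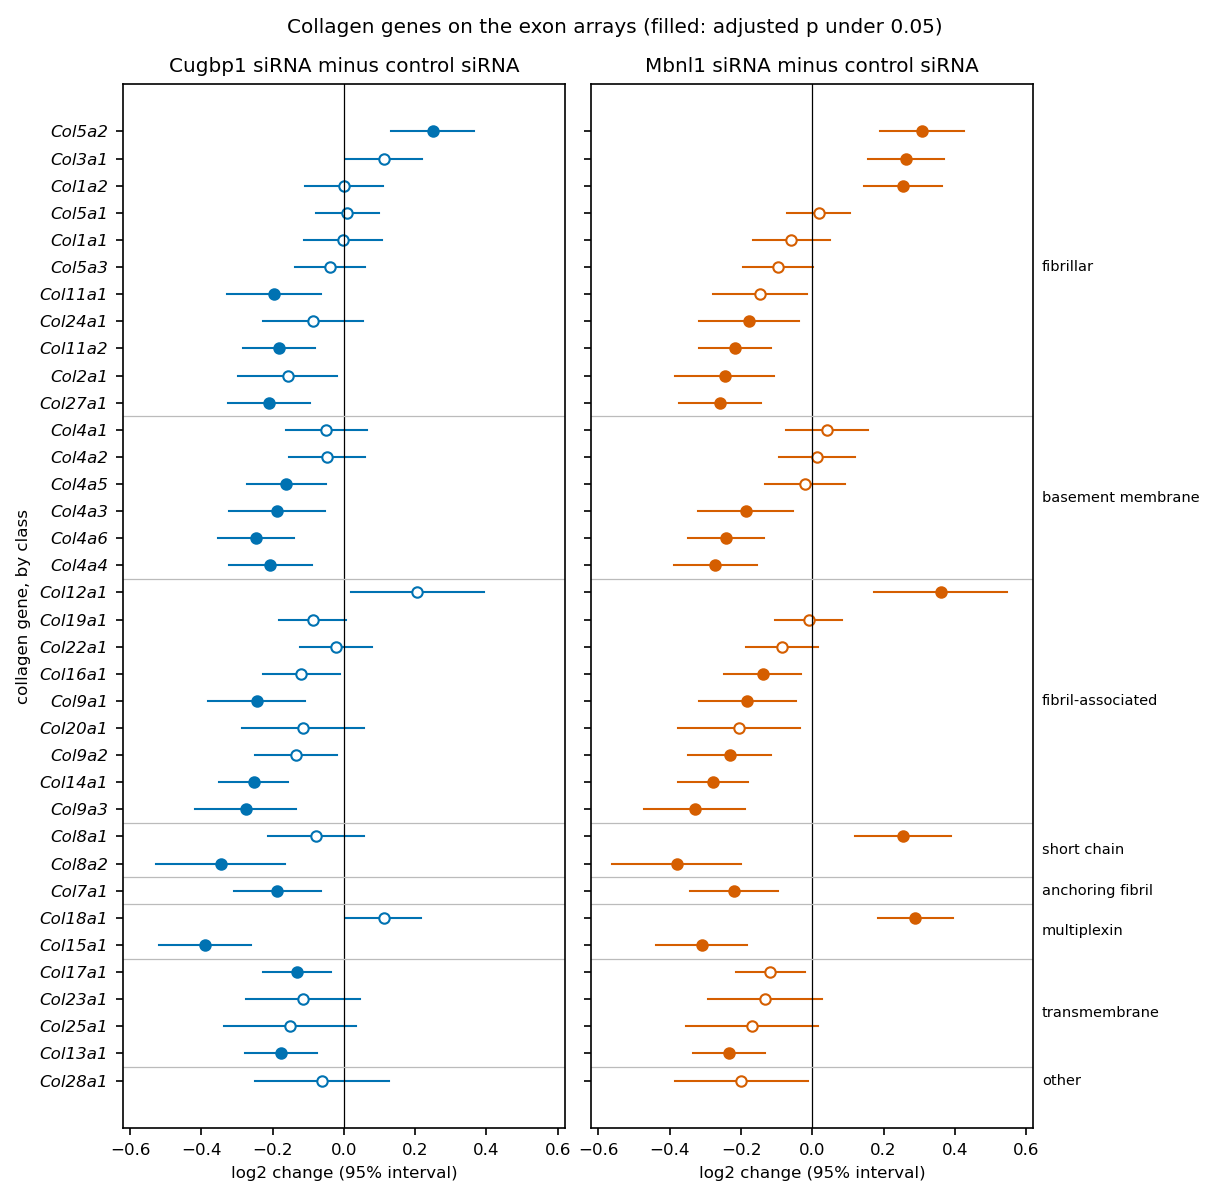
Log2 change of 36 collagen genes after Cugbp1 siRNA (left) and Mbnl1 siRNA (right) against control siRNA, by class, with 95% intervals from limma over 3 arrays per group. Filled points passed an adjusted p of 0.05. On the right, 6 filled points lie above 0 (Col5a2, Col3a1, Col1a2, Col12a1, Col8a1, Col18a1), and on the left 1 (Col5a2).

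The fibrillar class had 11 tested genes, of which 3 rose and 4 fell after Mbnl1 siRNA and 1 rose and 3 fell after Cugbp1 siRNA. Of all genes, 26.9% rose and 14.6% fell after Mbnl1 siRNA, and 26% and 12.7% after Cugbp1 siRNA. These shares stand beside each class count below. Col1a1 and Col1a2 encode the chains of type I collagen, which joins 2 alpha1 chains with 1 alpha2 chain. Col1a1 read 8.74, 8.71 and 8.86 on the control arrays, 8.77, 8.80 and 8.74 after Cugbp1 siRNA and 8.68, 8.71 and 8.74 after Mbnl1 siRNA. The 3 groups overlapped, and the log2 change was -0.0022 (95% interval -0.11 to 0.11) and -0.059 (-0.17 to 0.05). Neither passed the test (limma adjusted p = 0.976 and 0.352).

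Col1a2 read 9.86, 9.89 and 9.89 on the control arrays, 9.78, 9.93 and 9.93 after Cugbp1 siRNA and 10.11, 10.14 and 10.15 after Mbnl1 siRNA. All 3 Mbnl1 arrays lay above the other 6, while the Cugbp1 arrays lay on both sides of the controls. The change was 0.26 after Mbnl1 siRNA (SE 0.049, 1.19-fold, limma adjusted p = 0.00290) and 0.0005 after Cugbp1 siRNA (95% interval -0.11 to 0.11, limma adjusted p = 0.994). Within each array, Col1a2 minus Col1a1 was 1.11 ± 0.078 in controls (SD, n = 3) and 1.42 ± 0.014 after Mbnl1 siRNA, without overlap, and 1.11 ± 0.096 after Cugbp1 siRNA. The shift of 0.31 has a 2-sided exact permutation p of 0.1, the smallest that 3 against 3 arrays allow, and the shift of 0.0026 after Cugbp1 siRNA has an exact p of 0.9. Adjusted over the 6 such chain comparisons made, these are 0.2 and 1 by the exact test.

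Col3a1, the chain of the fine fibrils of soft tissue, read 9.51, 9.53 and 9.5 in controls, 9.53, 9.68 and 9.67 after Cugbp1 siRNA and 9.81, 9.77 and 9.75 after Mbnl1 siRNA. The Mbnl1 arrays were the highest 3, and 1 of the Cugbp1 arrays lay within the controls. It rose by 0.26 after Mbnl1 siRNA (SE 0.048, 1.2-fold, limma adjusted p = 0.00217). The Cugbp1 change of 0.11 (95% interval 0.0068 to 0.22) did not pass (limma adjusted p = 0.0841), but passed without Cugbp1 replicate 1 (0.17) and with the mean of the kept probe sets as the gene value (0.16).

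Col5a1 and Col5a2 encode chains of type V collagen, which sits inside type I fibrils and limits their width. Col5a2, the next collagen gene to Col3a1 on chromosome 1, read 8.35, 8.24 and 8.25 in controls, 8.45, 8.58 and 8.55 after Cugbp1 siRNA and 8.55, 8.56 and 8.65 after Mbnl1 siRNA. Both siRNA groups lay above the controls and overlapped each other. The rise was 0.25 after Cugbp1 siRNA (SE 0.053, 1.19-fold, limma adjusted p = 0.00555) and 0.31 after Mbnl1 siRNA (1.24-fold, limma adjusted p = 0.00149). Its partner Col5a1 changed by 0.0091 (95% interval -0.08 to 0.098) and 0.018 (-0.07 to 0.11), and neither change passed. Col5a2 minus Col5a1 within an array was -0.33 ± 0.066 in controls, -0.095 ± 0.068 after Cugbp1 siRNA and -0.045 ± 0.039 after Mbnl1 siRNA (SD, n = 3), without overlap with the controls and with an exact permutation p of 0.1 for each (0.2 when adjusted).

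The cartilage-type fibrillar genes had lower values. Col2a1, the main collagen of cartilage, read 8.44, 8.28 and 8.48 in controls, 8.24, 8.33 and 8.16 after Cugbp1 siRNA and 8.2, 8.11 and 8.16 after Mbnl1 siRNA. The Mbnl1 arrays lay below the controls and the Cugbp1 arrays overlapped them. It fell by 0.25 after Mbnl1 siRNA (limma adjusted p = 0.0109), and the change of -0.16 after Cugbp1 siRNA did not pass (limma adjusted p = 0.0683). Col11a2, a chain of the thin fibrils of cartilage, fell after both (-0.18 and -0.22 for Cugbp1 and Mbnl1 siRNA), the first not without control replicate 1 (-0.17) or 3 (-0.14). Its partner Col11a1 fell after Cugbp1 siRNA (-0.20), a call lost without any 1 of the controls, Cugbp1 replicate 3 or Mbnl1 replicate 3 (-0.20 to -0.15), with only the 2 groups in the fit and with no filter, where the value was -0.11, and changed by -0.15 without passing after Mbnl1 siRNA.

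Col27a1, a fibrillar collagen of developing cartilage, read 8.53, 8.51 and 8.63 in controls, 8.38, 8.38 and 8.28 after Cugbp1 siRNA and 8.36, 8.25 and 8.28 after Mbnl1 siRNA. All 6 siRNA arrays lay below the controls, and the fall was 0.21 and 0.26 on the log2 scale (limma adjusted p = 0.0108 and 0.00344). Col24a1, of developing bone, fell after Mbnl1 siRNA (-0.18), a call that was lost without any 1 of 6 of the arrays and at 4 of the other settings (-0.086 with no filter), and changed by -0.086 without passing after Cugbp1 siRNA. Col5a3, the third type V chain, passed in neither (-0.039 and -0.097).

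**Figure D2:**
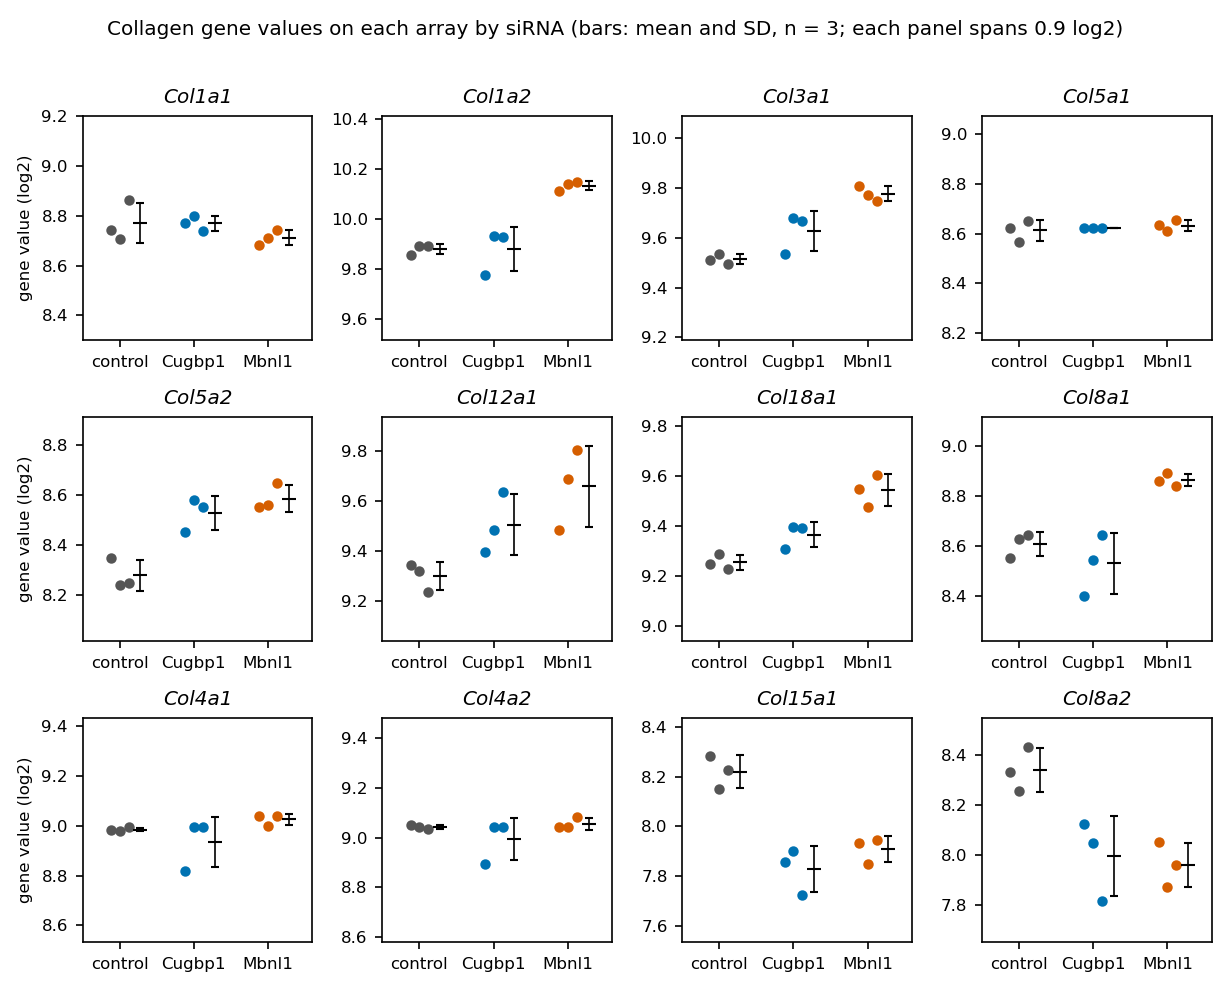
Gene values (log2) of 12 collagen genes on each of the 9 arrays, by siRNA (points), with mean and SD (bars, n = 3), each panel spanning 0.9 log2. Col1a2, Col3a1, Col18a1 and Col8a1 have their highest 3 values after Mbnl1 siRNA, Col15a1 and Col8a2 are below the controls after both siRNAs, and the groups overlap for Col1a1 and Col5a1.

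The basement membrane class holds the 6 chains of type IV collagen, which lie as neighbouring pairs on the chromosomes: Col4a1 with Col4a2, Col4a3 with Col4a4 and Col4a5 with Col4a6. The first pair makes the form found around most cells. Col4a1 read 8.98, 8.98 and 8.99 in controls, 8.82, 8.99 and 8.99 after Cugbp1 siRNA and 9.04, 9.0 and 9.04 after Mbnl1 siRNA. Col4a2 read 9.05, 9.04 and 9.03, then 8.90, 9.04 and 9.04, then 9.04, 9.04 and 9.08. Cugbp1 replicate 1 was the lowest array for both genes, and the other Cugbp1 arrays lay at the level of the controls. In the main fit no change passed. The values were -0.049 and 0.041 for Col4a1 and -0.048 and 0.014 for Col4a2 after Cugbp1 and Mbnl1 siRNA. All lay within 95% intervals from -0.16 to 0.16. Both Cugbp1 changes passed as lower when gene values were centred on each array's median. Without Cugbp1 replicate 1 the Cugbp1 values were 0.027 and 0.0044. The difference Col4a1 minus Col4a2 stayed at -0.057 ± 0.015 in controls, -0.058 ± 0.015 and -0.029 ± 0.023 (SD, n = 3).

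The other type IV chains, which are typical of kidney, lung, eye and smooth muscle, fell by 0.16 to 0.27 where they were called. Col4a6 read 7.98, 7.97 and 8.08 in controls, 7.76, 7.82 and 7.71 after Cugbp1 siRNA and 7.80, 7.75 and 7.75 after Mbnl1 siRNA. Col4a4 read 7.77, 7.81 and 7.89, then 7.60, 7.69 and 7.56, then 7.54, 7.5 and 7.61. For both genes all 6 siRNA arrays lay below the controls. Col4a6 changed by -0.25 and -0.24 (limma adjusted p = 0.00379 and 0.00315) and Col4a4 by -0.21 and -0.27 (0.0129 and 0.00296), and the Cugbp1 call of Col4a4 was lost without Cugbp1 replicate 3 (-0.16). Col4a6 kept 12 of its 68 probe sets, and with no filter its Mbnl1 change was -0.089 and did not pass. Col4a3 fell by 0.19 in each comparison (limma adjusted p = 0.0329 and 0.0308), and both calls were lost without any 1 of the controls (-0.19 to -0.17), the first also without Cugbp1 replicate 3 (-0.14) and the second without Mbnl1 replicate 1 or 2 (-0.18 each). Col4a5 fell after Cugbp1 siRNA (-0.16, limma adjusted p = 0.0299, lost without control replicate 1 or 3) and changed by -0.02 without passing after Mbnl1 siRNA. With the filter set at the 85th percentile, none of the Cugbp1 calls of Col4a3, Col4a4, Col4a5 and Col4a6 was made (-0.19, -0.17, -0.097 and -0.12), nor were the Mbnl1 calls of Col4a3 (-0.16) and Col4a4 (-0.18). With no filter the Cugbp1 calls of Col4a3, Col4a4 and Col4a5 were lost (-0.13, -0.12 and -0.11).

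Of the 9 fibril-associated collagens tested, 1 rose and 5 fell after Mbnl1 siRNA, and 0 rose and 3 fell after Cugbp1 siRNA. Col12a1, which coats type I fibrils in tendon and muscle, read 9.34, 9.32 and 9.24 in controls, 9.39, 9.48 and 9.64 after Cugbp1 siRNA and 9.48, 9.69 and 9.81 after Mbnl1 siRNA. All 6 siRNA arrays lay above the controls, with a wide spread within each siRNA group. The rise of 0.36 after Mbnl1 siRNA (SE 0.084, 1.28-fold) passed (limma adjusted p = 0.00722), and the change of 0.21 after Cugbp1 siRNA (95% interval 0.019 to 0.39) did not (limma adjusted p = 0.0758).

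Col14a1, which binds the same fibrils, went the other way. It read 7.82, 7.82 and 7.89 in controls, 7.61, 7.61 and 7.55 after Cugbp1 siRNA and 7.58, 7.52 and 7.60 after Mbnl1 siRNA, so that all 6 siRNA arrays lay below the controls. The change was -0.25 and -0.28 (limma adjusted p = 0.00223 and 0.00100). This gene kept 10 of its 53 probe sets, and with no filter on weak signals the changes were -0.077 and -0.028 and did not pass.

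The type IX genes code for chains that decorate cartilage fibrils. Col9a3 read 8.66, 8.59 and 8.64 in controls, 8.37, 8.47 and 8.22 after Cugbp1 siRNA and 8.38, 8.27 and 8.25 after Mbnl1 siRNA, again with all 6 siRNA arrays below the controls. It fell by 0.28 and 0.33 (SE 0.064, limma adjusted p = 0.00859 and 0.00296). Col9a1 fell after both (-0.25 and -0.18), the second not without control replicate 1 (-0.17) and neither with no filter on weak signals (-0.13 and -0.12), and Col9a2 fell after Mbnl1 siRNA (-0.23), not without Mbnl1 replicate 2 (-0.20), with -0.13 after Cugbp1 siRNA. Col16a1, found in skin and cartilage, fell after Mbnl1 siRNA by 0.14, a call lost without any 1 of the 3 control or 3 Mbnl1 arrays (-0.17 to -0.13), and changed by -0.12 after Cugbp1 siRNA without passing. Col19a1 (-0.087 and -0.01), Col20a1 (-0.11 and -0.21) and Col22a1 (-0.022 and -0.084), the last a collagen of the muscle-tendon junction, passed in neither comparison.

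The short-chain genes Col8a1 and Col8a2 encode the partners of type VIII collagen, which forms open networks in vessel walls and the cornea, and they separated. Col8a1 read 8.55, 8.63 and 8.65 in controls, 8.40, 8.54 and 8.65 after Cugbp1 siRNA and 8.86, 8.89 and 8.84 after Mbnl1 siRNA. Col8a2 read 8.33, 8.26 and 8.43, then 8.12, 8.05 and 7.82, then 8.05, 7.87 and 7.96. Col8a1 was thus highest on the 3 Mbnl1 arrays, whereas Col8a2 was below the controls on all 6 siRNA arrays. Col8a1 rose by 0.26 after Mbnl1 siRNA (SE 0.061, 1.19-fold, limma adjusted p = 0.00779) and changed by -0.079 after Cugbp1 siRNA (95% interval -0.21 to 0.056). Col8a2 fell by 0.35 and 0.38 (SE 0.082, limma adjusted p = 0.00917 and 0.00480). Col8a2 rested on 6 kept probe sets of 21 and Col8a1 on 11 of 12, and with no filter the Cugbp1 change of Col8a2 was -0.21 and did not pass.

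The multiplexins Col15a1 and Col18a1 encode basement membrane collagens that carry sugar chains, and their ends release the fragments restin and endostatin. They also separated. Col15a1 read 8.28, 8.15 and 8.22 in controls, 7.86, 7.90 and 7.73 after Cugbp1 siRNA and 7.93, 7.85 and 7.94 after Mbnl1 siRNA. All 6 siRNA arrays lay well below the controls, and the fall of 0.39 after Cugbp1 siRNA was the largest change of any tested collagen (SE 0.058, 0.763-fold, limma adjusted p = 0.00107), beside 0.31 after Mbnl1 siRNA (limma adjusted p = 0.00234). Col18a1 read 9.25, 9.29 and 9.23 in controls, 9.31, 9.40 and 9.39 after Cugbp1 siRNA and 9.55, 9.48 and 9.61 after Mbnl1 siRNA, so that the 3 groups stood apart in that order. It rose by 0.29 after Mbnl1 siRNA (SE 0.048, 1.22-fold, limma adjusted p = 0.00126), and the 0.11 after Cugbp1 siRNA (95% interval 0.0055 to 0.22) did not pass (limma adjusted p = 0.0871). Col15a1 rested on 19 kept probe sets of 51 and Col18a1 on 48 of 55.

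Col7a1, the gene of the fibrils that anchor skin to its base, fell by 0.19 and 0.22 (limma adjusted p = 0.0238 and 0.0102). Its Cugbp1 call was lost without control replicate 1 or 3 or Cugbp1 replicate 2 or 3 (-0.20 to -0.15), and its Mbnl1 call without control replicate 1 (-0.19). Among the transmembrane collagens, which span the cell membrane, Col13a1, found at muscle attachments and nerve-muscle synapses, fell after both siRNAs (-0.18 and -0.23), the first not without control replicate 1 (-0.15). Col17a1, of epithelial anchoring junctions, fell after Cugbp1 siRNA (-0.13), a call lost when any 1 of 8 of the arrays was left out, at 4 other settings and with no filter, where the value was -0.037, and changed by -0.12 after Mbnl1 siRNA without passing. Col23a1 (-0.11 and -0.13), Col25a1 (-0.15 and -0.17) and the unclassed Col28a1 (-0.062 and -0.20) passed in neither comparison.

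Between the siRNAs, 3 collagen genes were lower after Cugbp1 than after Mbnl1 siRNA and 0 were higher, where 9.34% of all genes were called (5.07% lower, 4.27% higher). They were Col8a1 (-0.33, SE 0.061, limma adjusted p = 0.00771), Col1a2 (-0.25, SE 0.049, limma adjusted p = 0.0105) and Col18a1 (-0.18, SE 0.048, limma adjusted p = 0.0440). The first 2 kept their call under every setting and left-out array. That of Col18a1 was lost without any 1 of the 9 arrays (-0.20 to -0.12), with only the 2 groups in the fit, with no filter, with genes of 1 or more kept probe sets tested, and with the replicate number as a block. Col3a1 (-0.15, limma adjusted p = 0.0845) passed only with the filter at the 85th percentile (-0.16) or genes centred on their median (-0.16). Col12a1 (-0.15, limma adjusted p = 0.298) and Col5a2 (-0.059, 95% interval -0.18 to 0.058) did not pass. The median of the 36 differences was 0.018, beside 0.0068 over all genes.

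The genes that rose and those that fell differed in how much of the gene gave signal. The following division at 75% of a gene's probe sets was chosen after the values were seen and is a description only. Of the 10 collagen genes with 75% or more of their probe sets kept (Col1a1, Col1a2, Col3a1, Col4a1, Col4a2, Col5a1, Col5a2, Col8a1, Col12a1 and Col18a1), 6 rose and 0 fell after Mbnl1 siRNA, with a median of 0.26, and 1 rose and 0 fell after Cugbp1 siRNA, with a median of 0.0048. Of the other 26, 0 rose and 16 fell after Mbnl1 siRNA (median -0.20), and 0 rose and 15 fell after Cugbp1 siRNA (median -0.17). Over all genes with 75% or more kept (n = 6288) the medians were 0.076 and 0.086, and 5.44% and 3.61% fell. Over all genes with less kept (n = 6358) they were -0.023 and -0.014, with 23.7% and 21.6% lower and 22.6% and 21.1% higher.

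Genes of other tissues were counted in the same way. Of 12 tested odorant, vomeronasal and taste receptor, defensin and keratin-associated genes, which muscle precursors are not known for, 5 fell after Mbnl1 siRNA (median -0.21) and 6 after Cugbp1 siRNA (median -0.22), with 0 higher, where 14.6% and 12.7% of all genes were lower, and 23.7% and 21.6% of those with under 75% of probe sets kept. Against the same shares, 4 and 6 of the 13 tested markers of blood, vessel, epithelial and nerve cells (of 16 listed, without Cdh5, Kdr and Epcam) fell and 2 and 0 rose, and their summed linear level was 3496 to 3597 in controls, 3373 to 3491 after Mbnl1 siRNA and 3031 to 3179 after Cugbp1 siRNA. The part of this shift in the falls of the 26 collagen genes was not tested. When the gene values of each array were centred on their median, 24 collagen genes fell and 6 rose after Mbnl1 siRNA and 23 fell and 1 rose after Cugbp1 siRNA, an alternative chosen after the data were seen. Within a comparison the change of every gene, collagen or not, was lowered by the same amount. The shares of all genes called at this setting are not given here, and those above belong to the main fit. With this centring the division at 75% was not clean after Cugbp1 siRNA. Of the 10 genes with 75% or more kept, 1 rose and 3 fell (median -0.076).

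**Figure D3:**
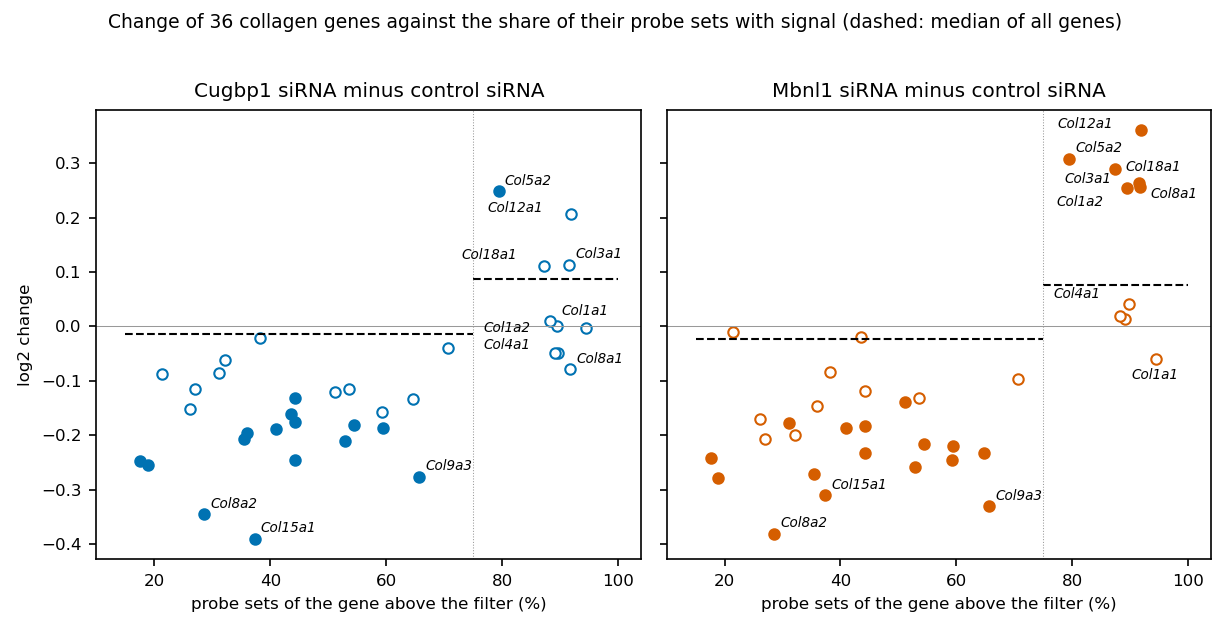
Log2 change of 36 collagen genes (points, filled where the adjusted p was under 0.05) against the percentage of the gene's probe sets above the filter on weak signals. The dotted line marks 75% and dashed lines the median of all tested genes on each side of it. At the main setting shown, no collagen gene to the right of it was called lower, and none to the left was called higher. With gene values centred on each array's median, 3 genes to the right were called lower after Cugbp1 siRNA.

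Markers of other matrix-producing cells were checked beside these results. Their counts stand beside the shares of all genes, 26.9% higher and 14.6% lower after Mbnl1 siRNA and 26% and 12.7% after Cugbp1 siRNA. Of 8 fibroblast markers 4 were tested, and after Mbnl1 siRNA Pdgfra (0.79), Cd34 (0.88) and Ly6a (0.26) rose and Pi16 fell (-0.40), while Thy1, Tcf21, Dpt and Lum had too few probe sets above the filter. Their summed linear level was 5156 to 5567 in controls, 4812 to 5850 after Cugbp1 siRNA and 6338 to 6904 after Mbnl1 siRNA, and most of this sum is Ly6a, whose probes were the brightest of the 4 (log2 mean of 12.17 in controls). After Cugbp1 siRNA Pdgfra rose (0.51) and Pi16 fell (-0.26). Of 7 cartilage and bone cell markers, 5 were tested, with Matn1 (-0.17) and Sp7 (-0.30) lower and 0 higher after Mbnl1 siRNA. After Cugbp1 siRNA, Sox9 rose (0.31) and Matn1 (-0.23) and Sp7 (-0.19) fell. Their summed level was 2262 to 2447 in controls, 2392 to 2609 after Cugbp1 siRNA and 2309 to 2378 after Mbnl1 siRNA, and Bglap and Ibsp were not tested. Of 9 markers of differentiated muscle 8 were tested (without Myog), of which 3 rose and 1 fell after Cugbp1 siRNA and 1 rose and 1 fell after Mbnl1 siRNA. The summed level of the 8 was 4614 to 4964, 4886 to 5347 and 4796 to 5580 in controls, Cugbp1 and Mbnl1 arrays. Most of that sum is Tnnt1, which passed in neither comparison, and Myl1, which rose in both. The part of these cell markers in the collagen changes was not tested.

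Single probe sets were next compared with their gene. The value is the log2 level of a probe set minus that of its gene on the same array, so a change in the whole gene cancels. Of 1160 collagen probe sets in 36 genes, 118 departed from their gene after Mbnl1 siRNA, 51 higher and 67 lower, and they lay in 29 genes. This is 10.2%, where 6.98% of all 158713 probe sets were called by limma with a mean-variance trend. After Cugbp1 siRNA 71 departed, 38 higher and 33 lower, in 23 genes (6.12% against 3.75% of all). Some of the probe sets counted were kept only through the arrays where they were higher, and the same filter was used for all probe sets. These counts and shares are therefore a description only. No collagen probe set differed between the siRNAs at an adjusted p under 0.05 in that limma fit (110 at an unadjusted p under 0.05, and 5 adjusted calls by limma's diffSplice), where 0.0277% of all probe sets were called. After Cugbp1 siRNA 24 of the 38 higher probe sets lay below their gene's level and 23 of the 33 lower ones above it. After Mbnl1 siRNA these were 25 of 51 and 44 of 67. How the probe sets that were not called lay to their gene was not counted. The part of signal strength in these calls was not tested.

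The Cugbp1 and Mbnl1 counts were lower with any 1 array left out, at most 69 and 109. Without Mbnl1 replicate 3, 2 or 1 the Mbnl1 count was 40, 46 and 56, and without control replicate 3 or 2 it was 51 and 78. Without Cugbp1 replicate 3, 2 or 1 the Cugbp1 count was 14, 29 and 39, without control replicate 3 or 2 it was 26 and 45, and without Mbnl1 replicate 2 it was 47. With no filter it was 26 for Mbnl1 and 4 for Cugbp1 siRNA, and with only the 2 groups in the fit the Cugbp1 count was 22. The shares of all probe sets at these settings are not given here. By gene, Col1a1 had the most calls after Cugbp1 siRNA, 9 of 52 probe sets (7 higher, 2 lower). After Mbnl1 siRNA Col1a1 (3 higher, 7 lower) and Col5a1 (7 higher, 3 lower) had 10 each, of 52 and 67.

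The largest departure was that of Col18a1 probe set 5166912, which lay -0.60, -0.85 and -0.50 from its gene in controls, -1.55, -1.42 and -1.62 after Cugbp1 siRNA and -1.73, -2.31 and -2.12 after Mbnl1 siRNA. All 6 siRNA arrays lay below the controls while the gene as a whole rose after Mbnl1 siRNA. The change was -0.88 (SE 0.16) and -1.40 (SE 0.16), with limma adjusted p = 0.0169 and 0.00160, and the first was lost without control replicate 3 (-0.83) or Cugbp1 replicate 3 (-0.85). Col2a1 probe set 5361164 lay 2.68, 2.46 and 2.79 above its gene in controls, 1.35, 1.78 and 1.08 after Cugbp1 siRNA and 1.81, 1.57 and 1.36 after Mbnl1 siRNA. It fell towards the gene's level on all 6 siRNA arrays, by 1.24 and 1.07.

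In Col1a1, whose gene value did not pass in either comparison, probe set 5456516 lay -2.50, -2.54 and -2.21 from the gene in controls, -1.3, -1.41 and -1.09 after Cugbp1 siRNA and -1.46, -1.34 and -1.52 after Mbnl1 siRNA. Probe set 4431747 of the same gene lay -2.74, -2.05 and -2.34, then -1.64, -1.33 and -1.31, then -1.15, -1.27 and -1.35. Both were dim in the controls, with log2 levels of 6.0 to 6.66, under the filter threshold that applies to the mean of the 9 arrays. They were higher on all 6 siRNA arrays and were kept through those arrays. Their changes are measured from a control level under that floor, and their p-values are a description only. The changes were 1.15 and 0.98 for the first (limma adjusted p = 0.00333 and 0.00377) and 0.95 and 1.12 for the second, whose Cugbp1 call was lost without Cugbp1 replicate 2 (0.92) or 3 (0.88).

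The other large departures were alike in kind. Probe sets 5202033 of Col12a1 (0.91 after Cugbp1 and 0.96 after Mbnl1 siRNA) and 5011423 of Col17a1 (0.96 and 0.91) were higher after both siRNAs. Their control levels (log2 of 6.06 to 6.61 and 6.73 to 7.12) had means under the filter threshold, so both were kept through the siRNA arrays. Their Cugbp1 calls were lost without Cugbp1 replicate 3 (0.92 and 0.81), and for Col12a1 also without replicate 2 (0.81). Probe set 4681655 of Col9a3 was lower after Cugbp1 siRNA (-1.19), a call lost without any 1 of 5 of the arrays (-1.24 to -0.94), and had -0.77 after Mbnl1 siRNA without passing. Probe sets 4373959 of Col12a1 (1.05), 4489680 of Col5a3 (-0.93) and 4712370 of Col4a5 (-0.91) passed after Mbnl1 siRNA, with 0.78, -0.80 and -0.51 after Cugbp1 siRNA. The first read 6.30 to 7.29 in controls, with a mean under the threshold, and was kept through the siRNA arrays, and the second read 6.44 to 7.18 after Mbnl1 siRNA, with a mean under the threshold there. The Mbnl1 calls of the first 2 were each lost without any 1 of 5 arrays (0.78 to 1.06 and -0.93 to -0.75), and that of the Col4a5 probe set without control replicate 3 (-0.84) or Mbnl1 replicate 2 (-0.72). No probe set was placed on an exon, since no array coordinates were used.

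**Figure D4:**
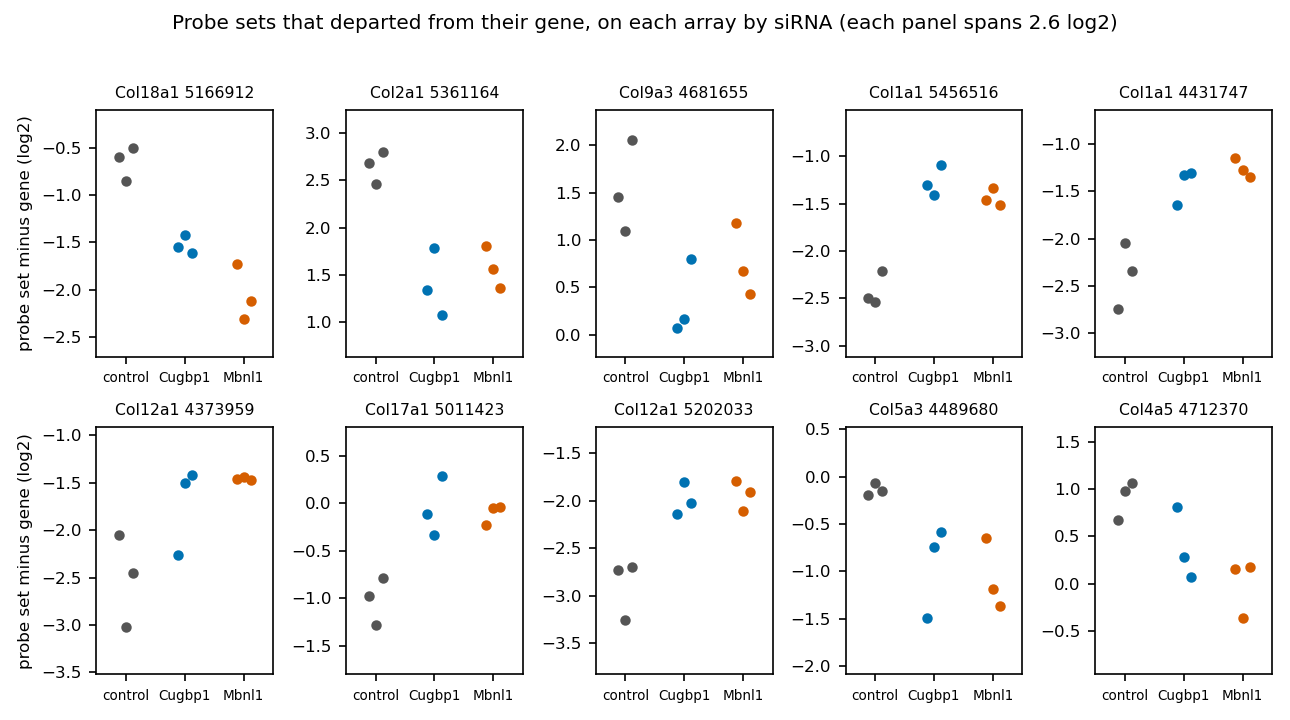
Log2 value of a probe set minus that of its gene on each of the 9 arrays, by siRNA, for the 10 collagen probe sets with the largest departures, each panel spanning 2.6 log2. Controls stand apart from both siRNA groups for Col18a1 5166912, Col2a1 5361164 and both Col1a1 probe sets, and the siRNA groups overlap in most panels.

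The genes that make, bind or break down collagens were followed in 5 lists of 72 genes in all, of which 52 were tested. After Mbnl1 siRNA 26 of the 52 rose and 5 fell, with a median of 0.15, and after Cugbp1 siRNA 18 rose and 4 fell, with a median of 0.052 (all genes called: 41.5% and 38.7%). Of all genes, 26.9% were higher and 14.6% lower after Mbnl1 siRNA, and 26% and 12.7% after Cugbp1 siRNA. These shares stand beside the count of each list below. With gene values centred on each array's median, the split was 18 higher and 7 lower after Mbnl1 siRNA and 10 and 7 after Cugbp1 siRNA. The shares of all genes with this centring are not given here. Between the siRNAs 3 were higher and 12 lower after Cugbp1 than after Mbnl1 siRNA (all genes called: 9.34%), and 9 in all were called without Mbnl1 replicate 1 and 9 without Mbnl1 replicate 2.

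Enzymes and chaperones that modify and fold the chains had 21 tested genes. In each comparison 10 rose and 0 fell, with medians of 0.15 after Mbnl1 and 0.13 after Cugbp1 siRNA. That is 47.6% called in each, beside 41.5% and 38.7% of all genes after Mbnl1 and Cugbp1 siRNA. Of all genes with 75% or more of their probe sets kept, 31.2% and 31% rose and 5.44% and 3.61% fell. Fkbp14, a prolyl isomerase of the endoplasmic reticulum, read 7.97, 8.05 and 8.03 in controls, 8.48, 8.5 and 8.49 after Cugbp1 siRNA and 8.53, 8.48 and 8.45 after Mbnl1 siRNA. It rose by 0.47 in both (limma adjusted p = 0.000104 and 4.46e-05), with the siRNA groups overlapping. Plod2, which hydroxylates lysines that form cross-links, rose by 0.30 and 0.51, and P3h2, a prolyl 3-hydroxylase, by 0.64 after Mbnl1 siRNA, with 0.22 after Cugbp1 siRNA that did not pass. Both were lower after Cugbp1 than after Mbnl1 siRNA (-0.21, not without Mbnl1 replicate 2, and -0.42).

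Tmem38b, an ion channel of the endoplasmic reticulum, read 7.85, 8.01 and 7.91 in controls, 8.42, 8.34 and 8.46 after Cugbp1 siRNA and 8.16, 7.95 and 8.11 after Mbnl1 siRNA. Its Cugbp1 arrays were the highest 3, and it rose by 0.48 after Cugbp1 siRNA, with 0.15 after Mbnl1 siRNA that did not pass and 0.33 between the siRNAs (limma adjusted p = 0.0103). Mia3, which helps load procollagen into transport vesicles, rose by 0.45 after Mbnl1 siRNA and 0.24 after Cugbp1 siRNA. Crtap, a partner of prolyl 3-hydroxylase 1, and P4ha1, a catalytic chain of prolyl 4-hydroxylase, rose by 0.26 in both. Not followed at the other settings or with arrays left out were the Cugbp1 call of Mia3, the Mbnl1 call of Crtap and both calls of P4ha1. The collagen chaperone gene Serpinh1 (0.0087 and 0.017 for Cugbp1 and Mbnl1 siRNA) and P4hb (0.0077 and -0.026), the other chain of prolyl 4-hydroxylase, passed in neither. Colgalt2 was not tested, and Fkbp10 was not analysed here.

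The list of procollagen cleavage and cross-linking had 11 tested genes, of which 5 rose and 1 fell after Mbnl1 siRNA and 2 rose and 1 fell after Cugbp1 siRNA. Bmp1, the protease that removes the C-terminal propeptide of fibrillar procollagens, read 10.85, 10.80 and 10.84 in controls, 10.82, 10.79 and 10.81 after Cugbp1 siRNA and 11.14, 11.10 and 11.15 after Mbnl1 siRNA. The Mbnl1 arrays stood above the other 6, with a rise of 0.30 (limma adjusted p = 0.000381) and a difference of -0.32 between the siRNAs (limma adjusted p = 0.000808). Loxl1, a lysyl oxidase that cross-links matrix proteins, had the same order, with 0.26 after Mbnl1 siRNA, -0.053 after Cugbp1 siRNA and -0.31 between them. Loxl3 (0.38 and 0.47) and Pcolce2 (0.43 and 0.41), an enhancer of Bmp1 activity, rose after both siRNAs. Adamts3, which trims the N-terminal propeptide, fell after both (-0.26 and -0.18), though with no filter its Cugbp1 change was -0.048 and did not pass. The Mbnl1 call of Adamts3 was not followed at the other settings or with arrays left out. Pcolce was higher after Cugbp1 than after Mbnl1 siRNA (0.14, limma adjusted p = 0.0457), a call lost without any 1 of the 9 arrays (0.13 to 0.16). Tll1 and Tll2 were not tested, and Lox was not analysed here.

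Proteins that bind collagen fibrils had 7 tested genes, of which 4 rose and 2 fell after Mbnl1 siRNA and 2 rose and 2 fell after Cugbp1 siRNA. Aspn, the gene of the small fibril-binding protein asporin, read 6.93, 7.02 and 6.63 in controls, 7.99, 8.23 and 8.06 after Cugbp1 siRNA and 8.80, 8.36 and 8.65 after Mbnl1 siRNA. The 3 groups did not overlap, and the fitted changes were 1.23 and 1.74 (limma adjusted p = 0.000186 and 1.49e-05). The control mean of 6.86 was under the filter threshold, so the gene was kept through the siRNA arrays, where it was higher. The size of its change is measured from a control level not above that floor, and its p-values against control are a description only. Aspn is among the 4 and 2 genes counted as risen in this list and in the counts over all lists. Ogn (osteoglycin) rose by 0.44 and 0.82. Dcn, the gene of decorin, which shapes fibril width, rose after Mbnl1 siRNA (0.48) and had 0.0086 after Cugbp1 siRNA. Aspn (-0.51, limma adjusted p = 0.0288), Ogn (-0.38), Dcn (-0.47, not with no filter, -0.41) and Sparc (-0.17), a collagen chaperone of the matrix, were lower after Cugbp1 than after Mbnl1 siRNA, but the call of Aspn was lost without Mbnl1 replicate 1 (-0.41) or 3 (-0.49), that of Ogn without Mbnl1 replicate 1 (-0.39) and that of Sparc without Cugbp1 replicate 2 or 3 or Mbnl1 replicate 2 or 3 (-0.18 to -0.15). Comp, a cartilage protein that binds type II and IX collagens (-0.33 and -0.36), and Tnxb, tenascin X (-0.18 and -0.18), fell after both. The Cugbp1 call of Tnxb was lost without Cugbp1 replicate 3 (-0.16), and its Mbnl1 call was not followed at the other settings or with arrays left out. Fmod, Lum, Prelp, Kera and Dpt were not tested.

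**Figure D5:**
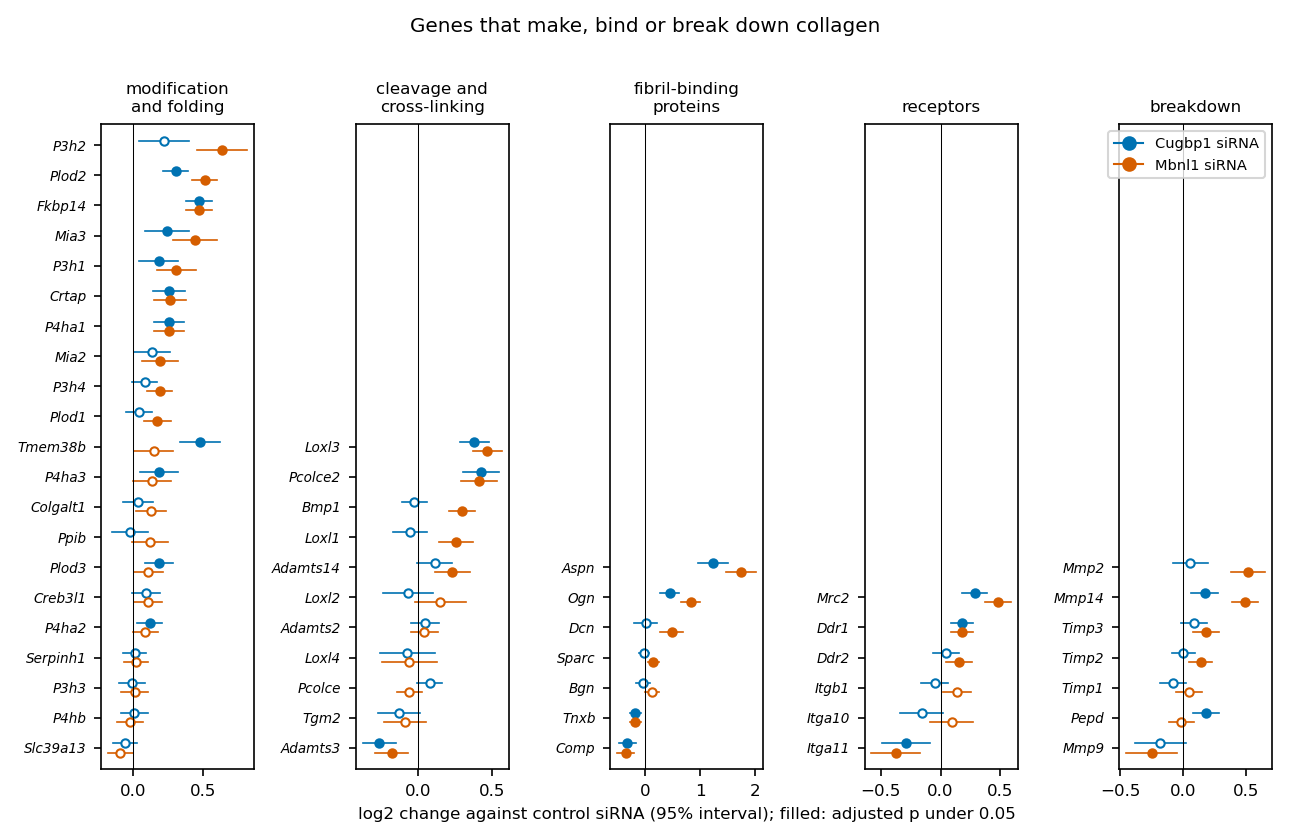
Log2 change against control siRNA (points, 95% intervals) for 52 genes that make, bind or break down collagens, after Cugbp1 siRNA (blue) and Mbnl1 siRNA (orange), filled where the adjusted p was under 0.05, with panels on different scales. In the modification and folding panel 10 points of each colour are filled and all lie above 0. The points of Aspn (1.23 and 1.74) are measured from a control mean of 6.86, under the filter threshold.

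Collagen receptors had 6 tested genes, of which 3 rose and 1 fell after Mbnl1 siRNA and 2 rose and 1 fell after Cugbp1 siRNA. Mrc2, the receptor that takes up collagen for breakdown, rose by 0.29 and 0.48 after Cugbp1 and Mbnl1 siRNA, and Ddr1, a collagen-binding receptor kinase, by 0.18 in both, though not with gene values centred on each array's median (0.097 and 0.10). Its relative Ddr2 rose after Mbnl1 siRNA (0.16), a call lost under each of the 3 other scalings (0.082 to 0.13) and without control replicate 1 (0.16) or Mbnl1 replicate 2 (0.14) or 3 (0.15). Itga11, the integrin chain that pairs with Itgb1 to bind type I collagen, fell by 0.29 and 0.38, the first not without any 1 of 5 of the arrays (-0.25 to -0.20), the second not without control replicate 3 (-0.27). With no filter these were -0.047 and -0.021 and did not pass. Mrc2 (-0.19) and Itgb1 (-0.19, limma adjusted p = 0.0483) were lower after Cugbp1 than after Mbnl1 siRNA, but the call of Mrc2 was lost without any 1 of the 6 siRNA arrays (-0.22 to -0.18) and that of Itgb1 without any 1 of 5 arrays (-0.21 to -0.15). Itga1, Itga2, Gp6 and Lair1 were not tested.

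Of 7 tested genes of collagen breakdown, 4 rose and 1 fell after Mbnl1 siRNA and 2 rose and 0 fell after Cugbp1 siRNA. Mmp2, a gelatinase, read 9.28, 9.34 and 9.18 in controls, 9.20, 9.39 and 9.39 after Cugbp1 siRNA and 9.79, 9.77 and 9.78 after Mbnl1 siRNA. The Mbnl1 arrays stood above the other 6, with a rise of 0.51 (limma adjusted p = 0.000238) and -0.46 between the siRNAs (limma adjusted p = 0.00162). Mmp14, the membrane-bound collagenase that activates it, rose by 0.49 after Mbnl1 siRNA and 0.17 after Cugbp1 siRNA, the latter not without control replicate 1 (0.17) or Cugbp1 replicate 2 (0.14) and not with genes centred on their median (0.089), with -0.32 between them. The inhibitor genes Timp2 (0.14) and Timp3 (0.18) rose after Mbnl1 siRNA. The call of Timp3 was lost with genes centred on their median (0.11). That of Timp2 was not followed at the other settings or with arrays left out. Mmp9 fell after Mbnl1 siRNA (-0.25, limma adjusted p = 0.0490), a call lost without any 1 of 7 arrays (-0.27 to -0.19). Pepd, which frees proline from collagen peptides, rose after Cugbp1 siRNA (0.18), a call lost without Cugbp1 replicate 3 (0.17), with no filter (0.087) and with genes centred on their median (0.10). It was higher there than after Mbnl1 siRNA (0.20), a call lost without any 1 of the 6 siRNA arrays (0.15 to 0.20) and with no filter (0.12). Mmp3, Mmp8, Mmp13, Ctsk, Fap and Timp4 were not tested.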

How the data were processed

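The authors deposited a table of intensity per probe set on a linear scale, made with RMA in Affymetrix Expression Console on mm9, per the submitters' processing notes, with versions not given in the sources used here. All 9 columns were matched to samples by their labels. These intensities were log2-transformed, and the deposited values were otherwise unchanged. Probe sets with 1 symbol in the platform annotation were filtered at the 75th percentile of their mean over the arrays. Gene values were Tukey median polishes of 3 or more probe sets, tested with limma 3.58.1 (R 4.3.3) in 1 fit of group means over 9 arrays, with Benjamini-Hochberg adjustment. Probe sets minus their gene value were fitted the same way, with a mean-variance trend, for genes with 4 or more. Both steps were tested on simulated data. Symbols were updated and promoters taken from RefSeq tables for GRCm38.p6.

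Members, lists and tests were chosen with earlier results of these data known. Named were every tested member, with array values for Col1a1, Col1a2, Col3a1, Col4a1, Col4a2 and the 14 called members with the largest change, the 10 largest probe sets, and up to 4 called genes per pathway list and comparison. Col10a1, Col5a1 with its chain difference, the markers, Serpinh1, P4hb, P4ha1 and Timp2 are additional and were chosen after their values were seen. Alternatives were the scaling, the filter, the gene summary, the fit, each array left out, and the replicate number as a block. Same-numbered arrays did not deviate together (r of -0.10 to 0.12), so the numbers were not taken to pair the samples.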

Additional observations from a re-analysis of the deposited data

How the results depend on the processing

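Called collagen genes numbered 16, 22 and 3 for Cugbp1 siRNA against control, Mbnl1 siRNA against control and Cugbp1 against Mbnl1 siRNA. They ranged over 9 to 20, 17 to 25 and 2 to 2 with 1 array left out, pathway genes (22, 31 and 15) over 16 to 25, 27 to 34 and 9 to 14, and probe sets (71, 118 and 0) over 14 to 69, 40 to 109 and 0 to 0. With no filter on weak signals 8 collagen genes were called after Cugbp1 siRNA and 4 and 26 probe sets after Cugbp1 and Mbnl1 siRNA. With only the 2 groups in the fit the Cugbp1 probe sets were 22. Between the siRNAs the probe sets called were 2 with the filter at the 85th percentile and 5 with diffSplice. The replicate number as a block gave 15, 20 and 2 collagen genes, 19, 31 and 10 pathway genes and 50, 89 and 0 probe sets. The shares of all genes and probe sets at these alternative settings are not given here, and the cause of the differences in count was not tested.

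The direction reversed only for changes near 0 that were called neither way in the main fit. After Cugbp1 siRNA Col1a1 was 0.040 with the mean of the kept probe sets and -0.032 to 0.043 with an array left out. Col1a2 was -0.042 with arrays centred, -0.026 with quantile normalization repeated, -0.0066 with the 85th percentile, -0.081 with genes centred on their median and -0.029 to 0.039 with an array left out. Col4a1 was 0.0058 with the mean and -0.077 to 0.027 with an array left out, and Col4a2 was -0.079 to 0.0044 with an array left out. After Mbnl1 siRNA Col4a1 was -0.034 with genes centred, and Col4a2 was -0.020 with arrays centred, -0.019 with quantile normalization and -0.061 with genes centred. Col4a1 and Col4a2 passed as lower (-0.13 each) after Cugbp1 siRNA with genes centred. Of 636 recomputed collagen gene values 555 kept direction and side of the threshold, of 603 pathway values 543, and of 132 probe set values 111. From the fits with an array left out, these totals hold only the lowest and highest value of each result. The collagen total also holds genes called in no comparison, such as Col1a1, Col4a1 and Col4a2. The number of arrays limits the precision.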
